A study of Homo sapiens with 4 samples.

Results

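Polycomb repressive complex 2 (PRC2) and the enzymes that write, maintain and remove DNA methylation were followed at the RNA level in neuroendocrine prostate cancer cells treated with ketotifen. The genes were chosen by name, as the rows of the deposited table whose symbol is EZH1, EZH2, EED, SUZ12, JARID2, DNMT1, DNMT3A, DNMT3B, TET1 or UHRF1. All 10 genes were found among the 16376 genes of the table, and all 10 passed the filter on low values. The samples were 4 RNA-seq libraries of LASCPC-01, a human neuroendocrine prostate cancer line of genotype WT, 2 treated with ketotifen and 2 with phosphate-buffered saline (PBS), all at day 3. Ketotifen is an antihistamine that blocks the histamine H1 receptor and stabilises mast cells, and its dose is not given in the labels. LASCPC-01 is a single line, known to come from human prostate epithelial cells transformed with MYCN and activated AKT1. Separate cultures are not stated for libraries of the same group, so the p-values cover only library-to-library spread, which may be technical.

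PRC2 places methyl groups on lysine 27 of histone H3, a mark of repressed chromatin, through EZH2 or its paralog EZH1, which need EED and SUZ12 for activity, while JARID2 is an accessory subunit that helps the complex reach its sites. DNMT3A and DNMT3B set new methyl groups on cytosines of CpG dinucleotides, DNMT1 copies the pattern to the daughter strand after replication, UHRF1 brings DNMT1 to hemimethylated DNA, and TET1 oxidises methylated cytosine as a step toward its removal. EZH2 is known to be abundant in neuroendocrine prostate cancer and is, with DNMT1 and UHRF1, among the genes that the E2F factors switch on in dividing cells.

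The start regions of 4 of the genes are printed to show how these genes differ at their start sites. EZH2, DNMT1 and UHRF1 hold an E2F motif at or near the start site. TET1 holds none in the windows searched, and neither do EED, JARID2, DNMT3A and DNMT3B. Each stretch covers 150 bases before to 25 bases after the RefSeq start site (build GRCh38.p14), 5′ to 3′ in the direction of the gene, and capitals mark E2F motifs and CCAAT boxes on either strand (a CCAAT box on the other strand reads ATTGG). The stretches are chr7:148884266-148884441 (minus strand) for EZH2, chr19:10194928-10195103 (minus strand) for DNMT1, chr19:4909351-4909526 (plus strand) for UHRF1 and chr10:68560187-68560362 (plus strand) for TET1.
EZH2: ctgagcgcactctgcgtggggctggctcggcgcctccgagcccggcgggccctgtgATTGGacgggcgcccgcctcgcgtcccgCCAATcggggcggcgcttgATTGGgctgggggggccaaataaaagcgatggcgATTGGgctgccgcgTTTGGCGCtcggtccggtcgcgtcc
DNMT1: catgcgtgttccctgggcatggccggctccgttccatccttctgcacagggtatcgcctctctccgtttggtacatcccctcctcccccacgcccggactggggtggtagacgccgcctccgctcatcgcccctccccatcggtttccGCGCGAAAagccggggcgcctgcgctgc
UHRF1: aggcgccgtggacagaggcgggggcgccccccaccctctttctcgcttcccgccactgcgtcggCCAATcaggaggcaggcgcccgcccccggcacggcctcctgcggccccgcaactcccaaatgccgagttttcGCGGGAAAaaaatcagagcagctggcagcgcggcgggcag
TET1: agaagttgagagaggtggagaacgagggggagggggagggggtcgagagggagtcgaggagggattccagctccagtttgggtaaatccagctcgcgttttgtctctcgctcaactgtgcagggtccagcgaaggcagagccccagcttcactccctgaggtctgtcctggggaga

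EZH2 carried 4 CCAAT boxes and 25 CpG dinucleotides in its 176 bases, DNMT1 18 CpG and no CCAAT box, UHRF1 1 CCAAT box and 20 CpG, and TET1 7 CpG and neither motif. The search covered all 21 RefSeq windows of the 10 genes, each from 250 bases before to 50 bases after a start site. The E2F motif was searched on both strands as TTTCCCGC, TTTCGCGC, TTTGCCGC and TTTGGCGC, the CCAAT box as CCAAT and the GC box as GGGCGG. An E2F motif stood in 6 of the 21 windows, in EZH1, EZH2, SUZ12, DNMT1 and UHRF1, against 3.30% of all 34943 RefSeq windows. These 6 windows held 0.87 to 1.10 times the CpG that their base content predicts, against a median of 0.58 over all windows. The share over all windows was not matched for this. CCAAT boxes stood in 9 windows of 7 genes (34.6% of all windows) and GC boxes in 13 windows of 6 genes (44.9% of all windows). The single RefSeq window of DNMT3B held 3 CpG. The windows of DNMT1, DNMT3B and UHRF1 start inside the genes as GENCODE draws them, so they do not describe the sequence at the outer starts of these genes. The TET1 window that holds the printed stretch ends before the GENCODE start of the gene at 68560656, and its other windows lie inside the gene. Some windows of EZH2, JARID2 and DNMT3A also lie inside their genes. A match describes the letters of a window, not a site that a factor uses.

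**Figure D1:**
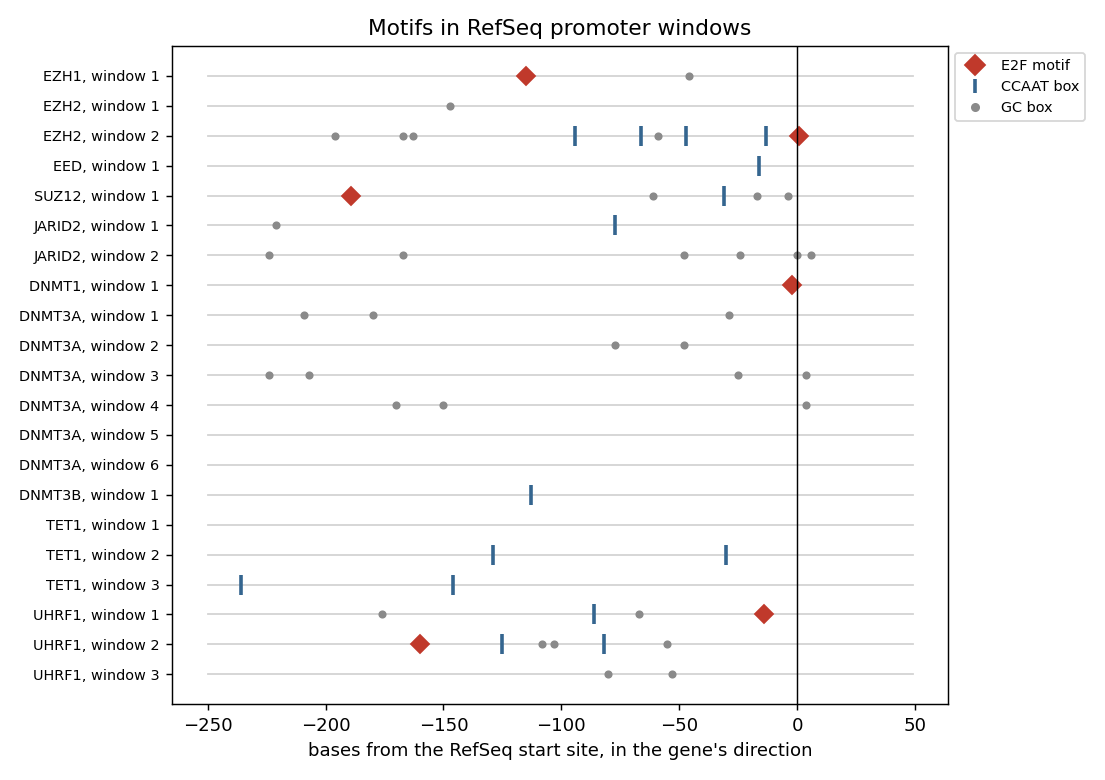
Motif matches in the 21 RefSeq promoter windows of the 10 genes, by distance in bases from the start site (0, vertical line) in the gene's direction. Diamonds are E2F motifs, bars CCAAT boxes and dots GC boxes on either strand; the E2F motifs lie at 1 in EZH2, -2 in DNMT1 and -14 in UHRF1.

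The authors deposited FPKM values (fragments scaled by gene length and by the library's total). The lengths they used are not given, so levels of different genes compare only as far as those lengths hold. Reads inferred from the steps of the FPKM values summed to at least 34979380 and 32177716 in the ketotifen libraries and at least 31313132 and 33105054 in the PBS libraries. PBS library B stood apart from the ketotifen libraries more than PBS library A did: the mean chi-square per gene of their reads was 28.1 and 22.8 for PBS B, against 11.2 and 9.94 for PBS A, 4.75 between the ketotifen libraries and 10.5 between the PBS libraries. Differences also moved with gene length, with a median log2 change of 0.04 in genes of up to 3374 exonic bases and -0.06 in genes of 7619 or more. Length also moved the difference within the PBS group, where the medians of library B minus A were -0.03 and 0.03 in the same genes. Within the ketotifen group they were -0.006 and -0.001. Of the neuroendocrine markers, INSM1 had 19.7 and 21.8 FPKM with ketotifen and 22.9 and 21.7 FPKM with PBS. The 6 neuroendocrine markers summed to 219.7 to 227.3 FPKM with ketotifen and to 237.0 FPKM in both PBS libraries. NCAM1, a surface marker among them, had 44.4 and 43.9 FPKM with ketotifen and 52.0 and 51.2 FPKM with PBS (limma adjusted p = 0.107; voom adjusted p = 0.00997, and 0.120 with the length trend removed), and ENO2 2.07 and 1.60 FPKM with ketotifen and 2.76 and 3.10 FPKM with PBS (limma adjusted p = 0.102; voom adjusted p = 0.0440, and 0.0600 with the length trend removed). Their part in the results was not tested. SYP and CHGA stayed under 0.6 FPKM in every library, so 2 defining markers of the label were near 0. The 5 luminal prostate markers summed to at most 17.3 FPKM with ketotifen and 17.0 FPKM with PBS, and the 4 epithelial markers to 1167 to 1190 FPKM with ketotifen and 1090 to 1140 FPKM with PBS. Of the other cells' markers, the 4 fibroblast genes summed to at most 2.55 FPKM with ketotifen and 2.96 FPKM with PBS, the 3 endothelial genes to at most 0.189 FPKM with ketotifen and 0.218 FPKM with PBS, and the 3 immune genes to at most 3.16 FPKM with ketotifen and 3.99 FPKM with PBS, with PTPRC, the pan-leukocyte marker, at most 0.0281 FPKM. None of these marker genes was at 0 in all 4 libraries, and in bulk RNA fewer cells of a type and less RNA per cell cannot be told apart.

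The 10 genes spanned a wide range of FPKM levels in both groups. Their order rests on the gene lengths used by the authors, which are not given. DNMT1 was highest, at 69.3 ± 0.244 FPKM with ketotifen and 69.7 ± 0.686 FPKM with PBS (mean ± SD, n = 2 each), above 91.1% of the 10586 tested genes. UHRF1 came next, then DNMT3B, then SUZ12 and EZH2 at nearly the same level, then EZH1. EED and JARID2 followed, and DNMT3A and TET1 were lowest, above 17.9% and 17.4% of the tested genes. SUZ12 and EZH2 did not differ beyond the spread of the PBS libraries: SUZ12 had 20.1 and 19.7 FPKM and EZH2 19.7 and 19.6 FPKM with ketotifen, and SUZ12 had 21.0 and 21.2 FPKM and EZH2 20.5 and 22.6 FPKM with PBS. DNMT3A and TET1 changed order between the groups, with DNMT3A above TET1 in both ketotifen libraries and TET1 above DNMT3A in both PBS libraries.

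**Figure D2:**
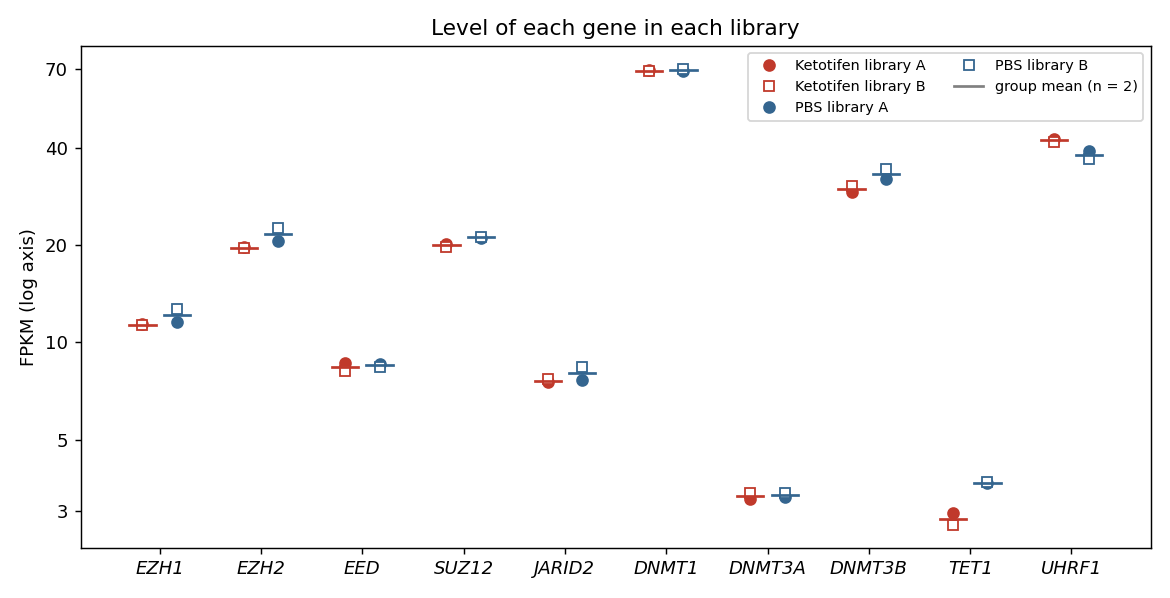
Level of each gene in FPKM (log axis) in each library, ketotifen in red left of PBS in blue; filled circles are library A, open squares library B and lines the means of 2 libraries. TET1 is at 2.97 and 2.73 FPKM with ketotifen and at 3.66 and 3.69 FPKM with PBS, while the DNMT1 points of both groups lie together near 70 FPKM.

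None of the 10 genes passed the test at an adjusted p under 0.05 by limma, fitted to log2(FPKM + 1) over all tested genes, where 0.123% of all tested genes did. At an unadjusted p under 0.05 there were 3 of the 10, TET1 and DNMT3B lower and UHRF1 higher with ketotifen, where 20.4% of all tested genes were past that limit. With limma's voom on the inferred reads, 1 of the 10 was called, TET1, where 6.82% of all tested genes were called, 3.47% lower and 3.35% higher. The log2 change, ketotifen minus PBS, was negative for 9 genes and positive for UHRF1, where 55.7% of all tested genes were negative and 44.3% positive. With the length trend removed, EED, DNMT1 and DNMT3A turned positive, which left 6 negative. The median change was -0.07 over the 10 and -0.02 over all tested genes. With equal sum scaling these medians were -0.12 and -0.06, and without PBS library B -0.03 and -0.01. The 2 groups did not overlap, with ketotifen lower, for 5 genes (EZH1, EZH2, SUZ12, DNMT3B and TET1), a state that 31.2% of all tested genes shared. UHRF1 was the one gene with both ketotifen values above both PBS values, a state shared by 23.2% of all tested genes.

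**Figure D3:**
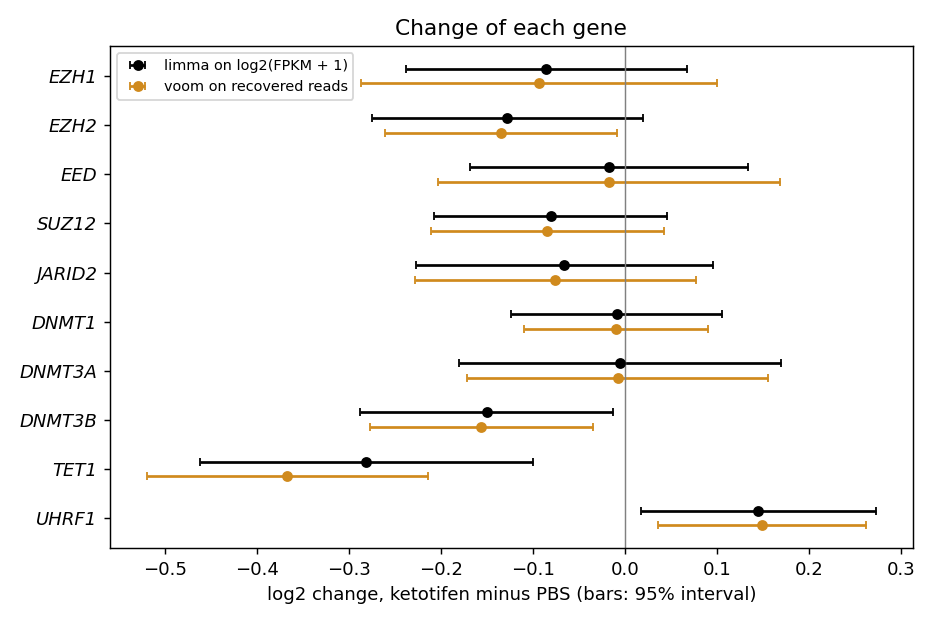
Log2 change of each gene, ketotifen minus PBS, with its 95% interval (bars) from limma on log2(FPKM + 1) in black and from voom on inferred reads in orange. By limma, the intervals of TET1 and DNMT3B lie below 0 and that of UHRF1 above it before any adjustment over genes, and those of the other 7 genes include 0.

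Among the PRC2 genes, the catalytic subunits were slightly lower with ketotifen and did not pass the test. EZH2 had 19.7 and 19.6 FPKM in the ketotifen libraries, against 20.5 and 22.6 FPKM in the PBS libraries. Both ketotifen values lay below both PBS values, and PBS library B was the highest of the 4. The log2 change was -0.13 ± 0.06 (SE; 95% interval -0.27 to 0.02; limma adjusted p = 0.30), a mean 8.96% lower. Without PBS library A the log2 change was -0.19, and without PBS library B -0.06, each from a fit with 1 PBS library. EZH1, which replaces EZH2 in cells that divide little, had 11.4 and 11.3 FPKM with ketotifen and 11.6 and 12.7 FPKM with PBS. The change was -0.09 ± 0.07 (limma adjusted p = 0.491), and here too PBS library B was the highest of the 4. The change was -0.14 without PBS library A (limma adjusted p = 0.202) and -0.03 without PBS library B (limma adjusted p = 0.911). The ratio of EZH2 to EZH1 was 1.73 in both ketotifen libraries, against 1.77 and 1.79 in the PBS libraries. An exact two-sided permutation test gave p = 0.333 for this ratio, the smallest that 2 against 2 libraries allow.

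SUZ12, the subunit that holds the PRC2 core together, differed by -0.08 ± 0.06 on the log2 scale (95% interval -0.21 to 0.05; limma adjusted p = 0.436), with the ketotifen values given above below both PBS values. EED, which binds the finished histone mark, had 8.62 and 8.16 FPKM with ketotifen and 8.60 and 8.40 FPKM with PBS. These values overlapped, and the change was -0.02 ± 0.07 (95% interval -0.17 to 0.13; limma adjusted p = 0.905). JARID2 had 7.52 and 7.68 FPKM with ketotifen and 7.65 and 8.37 FPKM with PBS. One ketotifen library lay above PBS library A, and the change was -0.07 ± 0.07 (95% interval -0.23 to 0.10; limma adjusted p = 0.620). It was -0.12 without PBS library A (limma adjusted p = 0.33) and -0.0083 without PBS library B (limma adjusted p = 0.977). The ratio of EZH2 to SUZ12 was 0.979 and 0.991 with ketotifen and 0.977 and 1.06 with PBS (exact two-sided permutation p = 1.0). Its ratio to EED was 2.29 and 2.40 with ketotifen and 2.39 and 2.69 with PBS (exact two-sided permutation p = 0.667).

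Of the 96 tested genes of the pathway lists described below, TET3 and POLA1 were among the 3 whose pattern over the 4 libraries was nearest to that of EZH2. Their mean absolute differences from EZH2 in centred log2(FPKM + 1) were 0.01 and 0.02. POLA1, the catalytic subunit of the polymerase that primes DNA synthesis, had 6.32 and 6.26 FPKM with ketotifen and 6.67 and 7.13 FPKM with PBS. Its likeness to EZH2, with PBS library B highest, follows from how POLA1 was chosen.

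The 3 DNA methyltransferases did not share a direction beyond their error. DNMT1 had 69.5 and 69.1 FPKM with ketotifen and 69.2 and 70.2 FPKM with PBS. The groups overlapped, and with a change of -0.01 ± 0.05 (95% interval -0.12 to 0.11; limma adjusted p = 0.935) its standard error was the smallest of the 10. DNMT3A had 3.28 and 3.42 FPKM with ketotifen and 3.32 and 3.41 FPKM with PBS. Its values overlapped as well, and the change was -0.01 ± 0.08 (95% interval -0.18 to 0.17; limma adjusted p = 0.976). DNMT3B had 29.2 and 30.4 FPKM with ketotifen and 32.0 and 34.4 FPKM with PBS. Both ketotifen libraries lay below both PBS libraries, by 10.2% of the mean, and the change was -0.15 ± 0.06 (95% interval -0.29 to -0.01; limma adjusted p = 0.215, voom adjusted p = 0.107). Leaving out PBS library A gave -0.20 and leaving out PBS library B gave -0.10, each from a fit with 1 PBS library. The ratio of DNMT3B to DNMT3A was 8.91 and 8.90 with ketotifen, against 9.66 and 10.1 with PBS (exact two-sided permutation p = 0.333).

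UHRF1, the partner of DNMT1, was the only one of the 10 that was higher with ketotifen. It had 42.6 and 41.7 FPKM in the ketotifen libraries, against 39.1 and 36.9 FPKM in the PBS libraries. The groups did not overlap, and the mean was 10.8% higher. The log2 change was 0.15 ± 0.06 (95% interval 0.02 to 0.27; limma adjusted p = 0.207, voom adjusted p = 0.0982), so it did not pass the test. It was 0.19 without PBS library A (limma adjusted p = 0.0352) and 0.10 without PBS library B (limma adjusted p = 0.412). The ratio of UHRF1 to DNMT1 was 0.613 and 0.603 with ketotifen and 0.565 and 0.525 with PBS (exact two-sided permutation p = 0.333).

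TET1 had the largest difference of the 10 genes. It had 2.97 and 2.73 FPKM with ketotifen, against 3.66 and 3.69 FPKM with PBS, from 1838 and 1551 inferred reads with ketotifen and 2028 and 2160 with PBS. The ketotifen libraries lay below the PBS libraries by more than either group's spread, and the mean was 22.5% lower. The log2 change was -0.28 ± 0.08 (95% interval -0.46 to -0.10) and did not pass the test (limma adjusted p = 0.137), at rank 552 of the 10586 genes by p. Voom on the inferred reads gave -0.37 ± 0.07 and called the gene (voom adjusted p = 0.00664). Voom also called it without PBS library B, at -0.36 (voom adjusted p = 0.00189), but not without ketotifen library B, at -0.31 (voom adjusted p = 0.145). TET1 has 9288 exonic bases in GENCODE 29 and so lies among the genes of 7619 bases or more, whose median change was -0.06. With the trend on length removed, the change was -0.23 by limma (adjusted p = 0.186) and -0.31 by voom (adjusted p = 0.0317).

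**Figure D4:**
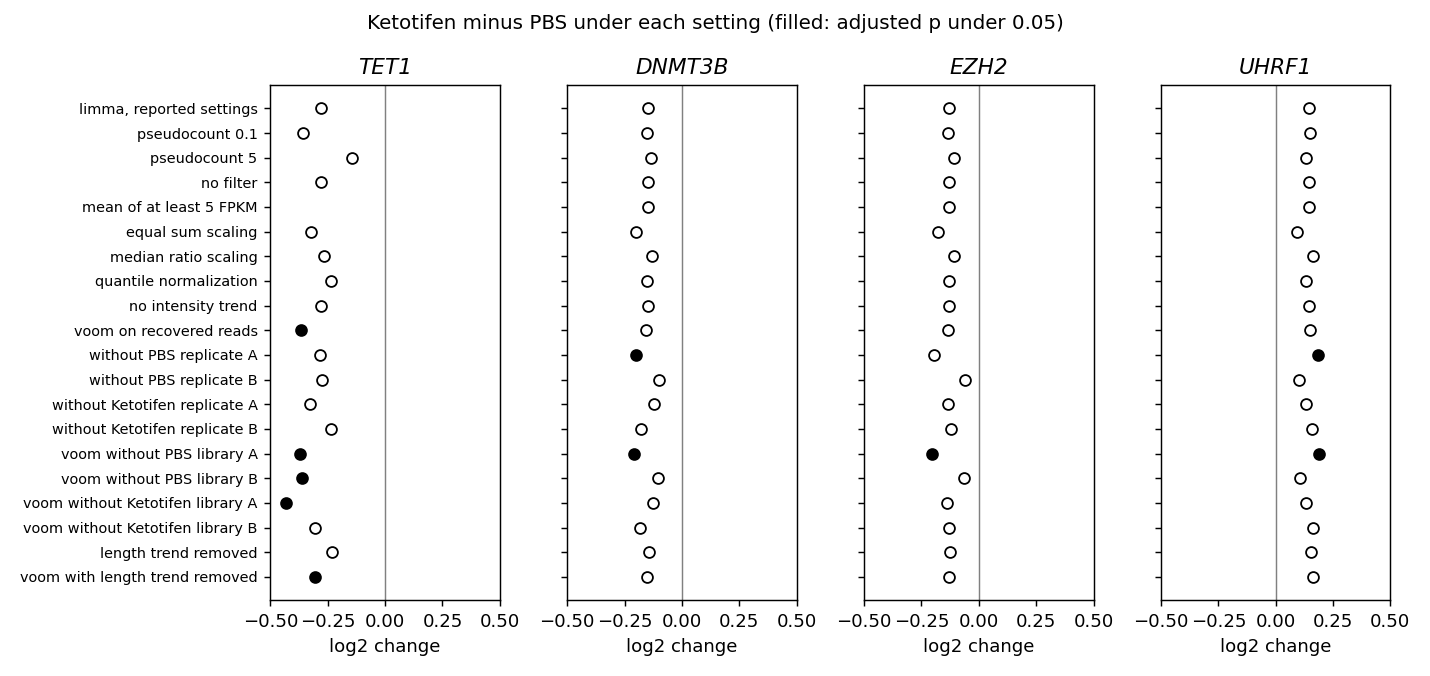
Log2 change of TET1, DNMT3B, EZH2 and UHRF1, ketotifen minus PBS, under each processing setting, with filled points for an adjusted p under 0.05. TET1 lies between -0.43 and -0.14 and UHRF1 between 0.09 and 0.19, and no point of these 4 genes crosses 0.

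TET2 and TET3 encode enzymes of the same kind as TET1. TET2 had 4.91 and 5.08 FPKM with ketotifen, against 5.71 and 6.08 FPKM with PBS (limma adjusted p = 0.189; voom adjusted p = 0.0472, and 0.277 with the length trend removed). TET3 had 8.99 and 8.89 FPKM with ketotifen and 9.68 and 10.4 FPKM with PBS (limma adjusted p = 0.245; voom adjusted p = 0.0826, and 0.417 with the length trend removed). TET2 and TET3 have 16474 and 12271 exonic bases, among the genes of 7619 bases or more. In each of the 3 TET genes both ketotifen libraries lay below both PBS libraries, as in 31.2% of all tested genes.

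The other genes of the pathway were described by lists drawn from general knowledge. Limma called 0 genes in every one of them, where it called 0.123% of all tested genes. Over all tested genes, limma gave 20.4% an unadjusted p under 0.05, and voom called 3.47% lower and 3.35% higher. Among 8 tested PRC2 partners, 1 had an unadjusted p under 0.05 and voom called the same gene lower, LCOR, whose locus also encodes a PRC2 accessory protein. LCOR had 4.51 and 4.49 FPKM with ketotifen and 5.25 and 5.34 FPKM with PBS (limma adjusted p = 0.188, voom adjusted p = 0.0177), and its voom adjusted p was 0.298 with the length trend removed. The next smallest p was that of MTF2, a Polycomb-like protein, with 9.45 and 9.11 FPKM with ketotifen and 9.77 and 9.79 FPKM with PBS (limma adjusted p = 0.557). The list's median change was 0.01. Among 21 subunits of PRC1, which binds the mark that PRC2 leaves, 6 had an unadjusted p under 0.05 by limma and voom called 0, with a median of -0.02. PCGF1 had 12.6 and 13.3 FPKM with ketotifen and 15.0 and 15.2 FPKM with PBS (limma adjusted p = 0.148). PCGF6 went the other way, with 4.46 and 5.54 FPKM with ketotifen and 3.77 and 4.23 FPKM with PBS (limma adjusted p = 0.214).

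Of 16 genes listed as demethylases of the PRC2 mark or as opposing activators, 13 had a negative change, where 55.7% of all tested genes did. With the length trend removed, CREBBP, NSD1, NSD2 and SMARCA4 turned positive by limma, at 0.024, 0.0033, 0.059 and 0.025. ASXL1, BAP1 and SMARCB1 were positive with and without that trend. By limma 6 of the 16 had an unadjusted p under 0.05 (20.4% of all tested genes), and the same 6 were called lower by voom (3.47% of all tested genes). These were ASXL2, KDM6B, KMT2A, KMT2C, KMT2D and EP300. KDM6B, a demethylase of lysine 27 of histone H3, had 18.4 and 18.9 FPKM with ketotifen, against 21.6 and 24.5 FPKM with PBS (limma adjusted p = 0.112, voom adjusted p = 0.0115). ASXL2, a partner of the deubiquitinase BAP1, had 9.46 and 9.37 FPKM with ketotifen, against 11.6 and 11.7 FPKM with PBS (limma adjusted p = 0.102, voom adjusted p = 0.00336). The list's median change was -0.13, or -0.05 with the length trend removed, and its genes have a median exonic length of 15492.5 bases, against 5171.5 for all tested genes. With that trend removed, voom called KDM6B (adjusted p = 0.0365) and ASXL2 (adjusted p = 0.0375) and none of the other 4.

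Among 10 other tested writers, partners and erasers of DNA methylation, limma gave 3 unadjusted p under 0.05 and voom called 2 higher and 1 lower (TET2). The shares over all tested genes were 20.4% by limma, and 3.35% higher and 3.47% lower by voom. TRIM28, a corepressor that protects methylation at imprinted regions, had 192 and 194 FPKM with ketotifen and 176 and 160 FPKM with PBS (limma adjusted p = 0.148; voom adjusted p = 0.0203, and 0.0427 with the length trend removed). SMUG1, a uracil glycosylase of base excision repair, had 11.4 and 11.7 FPKM with ketotifen and 10.3 and 8.42 FPKM with PBS (limma adjusted p = 0.158; voom adjusted p = 0.0481, and 0.0616 with the length trend removed). Of 8 methyl-CpG readers, 0 had an unadjusted p under 0.05 by limma and voom called 0, with a median of -0.08, or -0.03 with the length trend removed. The smallest p values were those of ZBTB4, with 5.68 and 5.73 FPKM with ketotifen and 6.12 and 7.15 FPKM with PBS (limma adjusted p = 0.254), and MBD2, with 11.4 and 10.4 FPKM with ketotifen and 11.5 and 13.6 FPKM with PBS (limma adjusted p = 0.271). Of 8 genes of the methyl donor cycle, limma gave 4 unadjusted p under 0.05 (20.4% of all tested genes). Voom called 1 higher (3.35% of all tested genes) and 1 lower (3.47% of all tested genes), MTR. MTR, which turns homocysteine into methionine, had 7.51 and 7.08 FPKM with ketotifen and 8.84 and 8.67 FPKM with PBS (limma adjusted p = 0.139; voom adjusted p = 0.0431, and 0.173 with the length trend removed).

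UHRF1 shares its direction with most of the S-phase genes that E2F is known to regulate. Of 20 such genes, 16 had a positive change (44.3% of all tested genes), and in 13 the ketotifen libraries lay above the PBS libraries without overlap (23.2% of all tested genes). The median change was 0.10, against -0.02 for all tested genes. With equal sum scaling it was 0.05, against -0.06 for all tested genes. With quantile normalization it was 0.06, against -0.0066 for all tested genes. Limma called 0 and gave 7 unadjusted p under 0.05 (20.4% of all tested genes), and voom called 1 (6.82% of all tested genes). That gene was FEN1, the flap endonuclease of lagging-strand synthesis, with 96.8 and 92.3 FPKM with ketotifen and 86.2 and 74.6 FPKM with PBS (limma adjusted p = 0.157; voom adjusted p = 0.0286, and 0.0805 with the length trend removed). MCM7, part of the helicase that opens DNA for replication, had 156 and 161 FPKM with ketotifen and 147 and 139 FPKM with PBS (limma adjusted p = 0.194). EZH1, EZH2, SUZ12 and DNMT1, which also hold an E2F motif, had changes of -0.09, -0.13, -0.08 and -0.01. Whether E2F has a part in any of these differences was not tested.

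**Figure D5:**
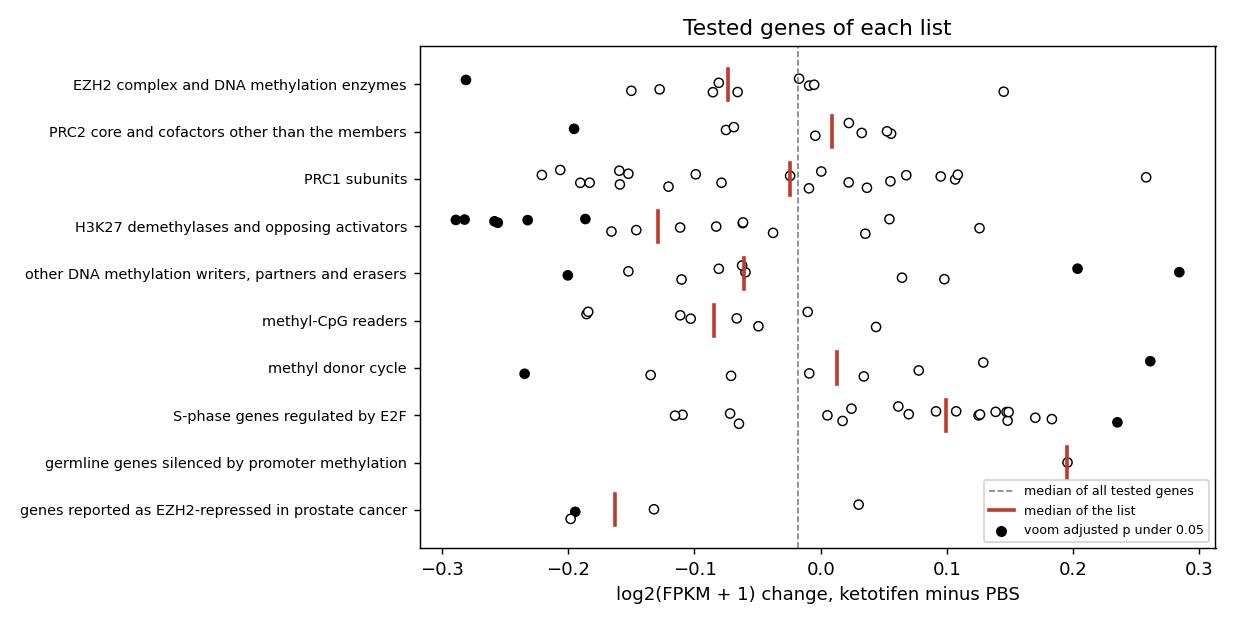
Log2 change of each tested gene in the lists of the pathway, ketotifen minus PBS, with list medians (red bars), the median of all tested genes (dashed line) and filled points for genes that voom called. The median is 0.10 for the S-phase genes and -0.13 for the list of demethylases and opposing activators, whose genes are long.

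Genes that PRC2 or DNA methylation is known to silence were mostly near 0 in both groups. Of 7 germline genes in the table, 6 stayed under 0.4 FPKM in every library. STK31, the single one tested, had 10.1 and 9.82 FPKM with ketotifen and 8.16 and 9.02 FPKM with PBS, a change of 0.20 that did not pass the test (limma adjusted p = 0.192, unadjusted p = 0.0241; voom adjusted p = 0.129). Of 9 genes reported as repressed by EZH2 in prostate cancer, 4 were tested. Of these, 1 had an unadjusted p under 0.05 by limma (20.4% of all tested genes), and voom called the same gene lower (3.47% of all tested genes). This was CDH1, which encodes E-cadherin, with 77.4 and 77.0 FPKM with ketotifen, against 85.7 and 91.3 FPKM with PBS (limma adjusted p = 0.136, voom adjusted p = 0.0226, and 0.0550 with the length trend removed). RUNX3 had 2.17 and 1.94 FPKM with ketotifen and 2.36 and 2.65 FPKM with PBS (limma adjusted p = 0.256). No measurement of histone or DNA methylation was analysed here, so these values are RNA levels.

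Some of the genes share their place in the genome with others. In GENCODE 29 (GRCh38), JARID2 at chr6:15246296-15522040 overlaps the antisense gene JARID2-AS1, EZH1 at chr17:42700275-42745049 overlaps AC100793.1 on the other strand, and DNMT1 at chr19:10133345-10231286 overlaps S1PR2 on the same strand. EZH2 lies at chr7:148807383-148884321, TET1 at chr10:68560656-68694482, DNMT3B at chr20:32762385-32809356 and UHRF1 at chr19:4903080-4962154, all of them protein-coding genes. The libraries were made with a stranded kit, but whether counting used the strand is not given in the sources used here. EZH2 and SUZ12 have pseudogene copies, and how the authors treated reads that match more than one place is not given either, so their levels are uncertain to that extent.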

How the data were processed

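RNA was measured in 4 libraries of LASCPC-01 cells, 2 per group. Per the labels, a stranded mRNA kit was used. Fastp, HISAT2, HTSeq and the build GRCh38 appear in the submitters' processing notes, with neither role nor version. The annotation behind the gene lengths is not given in the sources used here. The deposited values are FPKM, made by the authors. Columns carry a group and a letter, A or B, which the labels do not tie to replicate numbers.

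The 10586 genes averaging 1 FPKM or more were tested with limma 3.58.1 (R 4.3.3, intensity trend) on log2(FPKM + 1), two-sided, with Benjamini-Hochberg adjustment over all of them and a threshold of 0.05. Changes on this scale understate those of low genes. Because each gene's FPKM values step by the worth of 1 read, whole reads (or a whole fraction of them) were inferred (Python 3.11.15) for 100.0% of tested genes within 0.05 reads, and for 0 of 500 decoy genes. Voom on these reads was an alternative; other alternatives changed the pseudocount, filter, scaling, trend and libraries. Removal of the length trend and voom without single libraries were added after the data were seen. Promoter windows are from RefSeq, gene positions from GENCODE 29.

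The 10 genes and the lists were chosen with earlier results of these data known. Named genes are all 10, the called genes of each list or otherwise the 2 with the smallest p, the markers, and the 3 list genes nearest to EZH2. List genes named from voom alone, such as TET2, KMT2A, KMT2C, KMT2D and EP300, were chosen after their values were seen. Some genes that this rule takes are not reported here.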

Additional observations from a re-analysis of the deposited data

How the results depend on the processing

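No paired analysis was possible because the letters of the columns are not tied to the replicate numbers of the labels. Of the 10 genes, limma called 0 under other pseudocounts (0.1 and 5), filters, scalings, without the intensity trend and with the length trend removed, and 0 to 2 when single libraries were left out (DNMT3B and UHRF1 without PBS library A). Voom called 1 (TET1), and also 1 without PBS library B, without ketotifen library A and with the length trend removed. It called 0 without ketotifen library B and 4 without PBS library A (EZH2 at -0.20, DNMT3B at -0.21, TET1 at -0.37 and UHRF1 at 0.19). DNMT3A and TET1 were not tested at a mean of at least 5 FPKM. Over all genes limma called 13, but 0 with no filter (2260 at an unadjusted p under 0.05), 27 at a mean of at least 5 FPKM, 3 with median ratio scaling, 3 with quantile normalization, 4 without the intensity trend and 10 to 1936 with single libraries left out. Voom called 722 over all genes, 396 with the length trend removed, 2157 and 418 without PBS library A and B, and 127 and 195 without ketotifen library A and B. The cause of these shifts was not tested.

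The direction of 3 genes with changes near 0 turned under some settings. EED was 0.00084 with median ratio scaling, 0.0011 with quantile normalization, -0.052 to 0.018 with single libraries left out, 0.020 by voom without ketotifen library B, and 0.013 by limma and 0.017 by voom with the length trend removed. DNMT1 was 0.011 with median ratio scaling, -0.019 to 0.00079 with single libraries left out, 0.00087 by voom without PBS library B, and 0.047 and 0.057 with the length trend removed by limma and voom. DNMT3A was 0.010 with median ratio scaling, 0.055 with quantile normalization, -0.029 to 0.019 with single libraries left out, 0.014 and 0.024 by voom without PBS library B and ketotifen library A, and 0.067 and 0.078 with the length trend removed by limma and voom. The other 7 genes kept their sign in every setting run. Leaving out a library leaves 1 in its group, which is then assumed to vary like the other group. The PRC1 median moved between -0.08 with equal sum scaling and -0.0046 with median ratio scaling. The median of all tested genes was -0.06 and -6.2e-05 under the same scalings.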
